A study of Mus with 4 samples.

Results

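The angiocrine genes Wnt2, Wnt9b, Rspo3, Hgf and Kitl, 5 of the 54532 genes in the count table, were followed in liver sinusoidal endothelial cells (LSECs) of mice given carbon tetrachloride (CCl4), a toxin that injures the liver. They were taken by their Ensembl identifiers as known angiocrine factors, with earlier results of these data known. Angiocrine factors are signals that endothelium releases to neighbouring cells. Of the 4 RNA-seq libraries, 2 came from Pofut1 knockout mice (P1KO: columns KO1 and KO3) and 2 from controls (CTL: columns CTL1 and CTL2), and mice of both groups received CCl4. Per the title of the series the POFUT1 in question is that of the endothelium. The sources used here do not give the Cre driver, the strain, age or sex of the mice, the number of animals in a library or the time after CCl4. POFUT1 is a fucosyltransferase that modifies EGF-like repeats, including those of Notch receptors. The cell type label names LSECs, whereas the extraction protocol names heart ventricles, and this contradiction was not settled.

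In the liver lobule, hepatocytes near the central vein express a different set of genes from those near the portal vein, a pattern called zonation. WNT2 and WNT9B are secreted by endothelium at and around the central vein and act through Frizzled receptors and beta-catenin on adjacent hepatocytes. RSPO3 strengthens this signal by binding LGR receptors and removing the ligases RNF43 and ZNRF3, which otherwise clear Frizzled from the cell surface. HGF, made in the liver by stellate cells and endothelium, binds the receptor MET and drives hepatocyte growth. KITL, or stem cell factor, binds the receptor KIT and exists in membrane-bound and shed forms.

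The libraries held 17918834 reads in KO1, 17724765 in KO3, 17464769 in CTL1 and 17801587 in CTL2. All 5 genes passed the filter on low counts, which kept 15510 genes, and all 5 were at or above the median level of the kept genes, 18.8 CPM (read counts scaled to library size). The lowest count among them was 687 reads, and counting error was between 1.12% and 3.82% of a value. Levels are CPM scaled with TMM, a method that corrects library totals for composition. Scaling factors lay between 0.98 and 1.01. Over all tested genes, variation between libraries beyond counting noise (the biological coefficient of variation) came to 12.1% in P1KO and to 3.22% in CTL, whose libraries were thus much closer to each other. Even the CTL pair differed by more than sampling noise, with a chi-square per gene of 2.07 where noise alone gives about 1.

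The 5 genes did not move as 1 group. In P1KO, Wnt2 was higher, Wnt9b, Rspo3 and Kitl were lower, and Hgf did not pass the test (edgeR's quasi-likelihood F-test; a gene was called at a Benjamini-Hochberg adjusted p below 0.05 over all tested genes). Thus 4 of the 5 were called, 1 higher and 3 lower, where 19.5% of all tested genes were called, 9.68% higher and 9.84% lower. Among tested genes at or above the median level, the class that holds all 5, the called share was 27.6%. The 5 lay well above that median, with 73.9% (Rspo3) to 97.5% (Wnt2) of tested genes less abundant. The called share among genes of their own level was not computed. For the same 4 genes both P1KO libraries lay on 1 side of both CTL libraries, as they did for 62.6% of all tested genes. The median log2 fold change of all tested genes was -0.0077. In RNA from a bulk preparation, fewer cells of a type and less RNA per cell cannot be told apart.

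**Figure D1:**
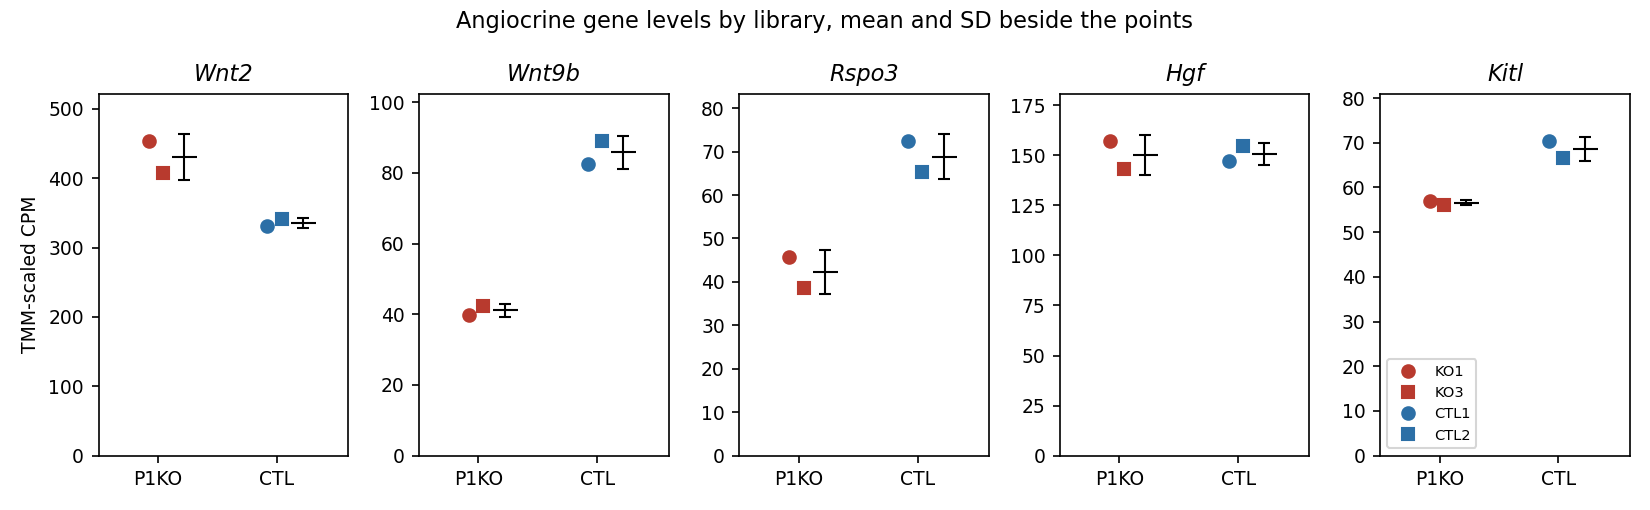
Levels of the 5 angiocrine genes, in TMM-scaled CPM on linear axes that start at 0, in P1KO libraries (red) and CTL libraries (blue). Points are libraries, and the bar beside them gives the mean and SD of each pair. The groups are apart for Wnt2, Wnt9b, Rspo3 and Kitl and overlap for Hgf.

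Wnt9b (ENSMUSG00000018486), like Wnt2 a Wnt ligand of endothelium at and around the central vein, showed the largest change of the 5. Its level was 39.9 CPM in KO1 and 42.5 CPM in KO3, against 82.5 CPM in CTL1 and 89.1 CPM in CTL2. Both P1KO libraries were thus near the same low level, and the highest of them was below the lower CTL library by 0.96 on the log2 scale. The mean was 41.2 ± 1.83 CPM in P1KO and 85.8 ± 4.67 CPM in CTL (SD, n = 2 each). Wnt9b fell to 48.0% of the CTL level, a log2 fold change of -1.06 ± 0.071 (SE; 95% interval -1.23 to -0.89; edgeR adjusted p = 0.000202). Of all tested genes, 4.31% had a lower fold change. In RefSeq (GRCm38.p6, the build that mm10 denotes) Wnt9b lies on chromosome 11 from 103727362 to 103775272. It overlaps the neighbouring ligand gene Wnt3 by 1098 of its 47911 bases. These are RefSeq gene spans, and neither the annotation release nor the strand setting of the counting is given. Whether the counted gene models overlap, and how reads there were assigned, is therefore not known.

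Wnt2 (ENSMUSG00000010797), the other Wnt ligand among these genes, went the opposite way and by less. It had 454 CPM in KO1 and 407 CPM in KO3, against 330 CPM in CTL1 and 341 CPM in CTL2. KO1 was the highest library, and the P1KO libraries differed from each other by 0.16 on the log2 scale, compared with 0.045 between the CTL libraries. The mean was 430 ± 33.3 CPM in P1KO and 336 ± 7.37 CPM in CTL (SD, n = 2 each). Wnt2 rose 1.28-fold, a log2 fold change of 0.36 ± 0.065 (SE; 95% interval 0.21 to 0.51; edgeR adjusted p = 0.00910). A larger fold change was found in 12.2% of all tested genes. Wnt2 was the gene of the 5 with the most reads and ranked number 392 by CPM among the tested genes, a rank that also depends on transcript length. RefSeq places it on chromosome 6 from 17985474 to 18032772, with no overlapping gene in its gene table.

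Rspo3 (ENSMUSG00000019880), the amplifier of Wnt signalling, fell as Wnt9b did. Its level was 45.8 CPM in KO1 and 38.6 CPM in KO3, against 72.5 CPM in CTL1 and 65.2 CPM in CTL2. The libraries of each group were farther apart than for the other 4 genes, by 0.25 in P1KO and 0.15 in CTL on the log2 scale, yet the groups did not overlap. The mean was 42.2 ± 5.09 CPM in P1KO and 68.9 ± 5.14 CPM in CTL (SD, n = 2 each). This was 61.3% of the CTL level, a log2 fold change of -0.71 ± 0.097 (SE; 95% interval -0.93 to -0.48; edgeR adjusted p = 0.00310). A lower fold change was found in 9.41% of all tested genes. Rspo3 lies on chromosome 10 from 29453106 to 29535867 (GRCm38.p6), with no overlapping gene in the table.

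Hgf (ENSMUSG00000028864), the growth factor for hepatocytes, had nearly equal means in the groups. KO1 had 157 CPM and KO3 had 143 CPM, against 147 CPM in CTL1 and 155 CPM in CTL2. The highest and the lowest library were both P1KO, so the CTL values lay inside the P1KO range. The mean was 150 ± 10.1 CPM in P1KO and 151 ± 5.45 CPM in CTL (SD, n = 2 each). The log2 fold change was -0.0061 ± 0.068 (SE; edgeR adjusted p = 0.963). Its 95% interval, -0.16 to 0.15, corresponds to levels between 0.892-fold and 1.11-fold of CTL. The missed threshold does not show that the level was the same in both groups. Hgf is on chromosome 5 from 16553495 to 16619439 (GRCm38.p6) and shares 13229 of 65945 bases of its span with the long non-coding RNA gene Gm31113. The assignment of reads in that shared stretch is likewise not known.

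Kitl (ENSMUSG00000019966), the ligand of KIT, fell slightly. Its level was 57.0 CPM in KO1 and 56.2 CPM in KO3, against 70.4 CPM in CTL1 and 66.7 CPM in CTL2. The P1KO libraries were 0.022 apart on the log2 scale and the CTL libraries 0.079, the reverse of the pattern over all genes. Wnt9b showed the same order, at 0.090 in P1KO and 0.11 in CTL. Counting error of a Kitl value was 2.84% to 3.16%, so differences of this size can come from counting alone. The mean was 56.6 ± 0.614 CPM in P1KO and 68.6 ± 2.66 CPM in CTL (SD, n = 2 each), which is 82.6% of the CTL level. The log2 fold change was -0.28 ± 0.064 (SE; 95% interval -0.43 to -0.13; edgeR adjusted p = 0.0226). A lower fold change was found in 24.2% of all tested genes, so the size of the fall was common in these data. Kitl lies on chromosome 10 from 100015615 to 100100416 (GRCm38.p6) with no overlapping gene in the table, and gene counts do not separate its membrane-bound and shed forms.

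**Figure D2:**
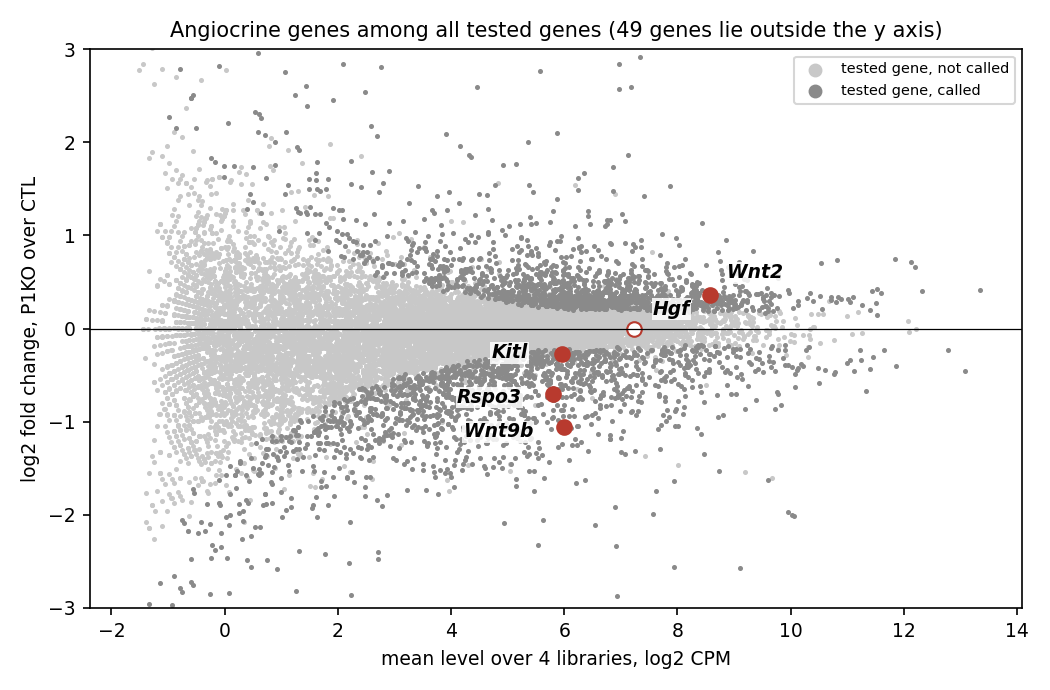
Log2 fold change of P1KO over CTL (vertical axis) against mean level in log2 CPM (horizontal axis) for the tested genes, with called genes in dark grey and the angiocrine genes as large circles, filled where called. Wnt9b, at -1.06, lies lowest of the 5, Wnt2, at 0.36, lies above the zero line, and Hgf lies on it.

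The calls differed in how far they rested on the close CTL pair. The fall of Wnt9b had log2 fold changes from -1.12 to -1.01 with any 1 library left out. It stayed called with either CTL library left out, when the spread came from the P1KO pair. Leaving out CTL1 gave it an edgeR adjusted p of 0.0331 and leaving out CTL2 one of 0.0410, which became 0.0535 when low counts were filtered again in the smaller set. For Wnt2 the edgeR adjusted p rose to 0.204 when CTL1 was left out and to 0.174 when CTL2 was. The same fits gave Rspo3 0.106 and 0.0774, and Kitl 0.240 and 0.163, so these 3 genes were not called then. Their fold changes stayed of like size, at 0.33 and 0.38 for Wnt2, -0.63 and -0.79 for Rspo3 and -0.24 and -0.32 for Kitl. The share of all tested genes that was called was 0.832% with CTL1 left out and 0.774% with CTL2 left out. With the CTL libraries summed to 1 sample, Wnt9b was again the gene of the 5 that was called (edgeR adjusted p = 0.0361), with 0.980% of all tested genes. It was also the gene of the 5 called against a minimum change of 1.5-fold (edgeR adjusted p = 0.00423), with 1.74% of all tested genes.

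With a single P1KO library the sizes varied most for Rspo3 and Wnt2. With KO1 left out the log2 fold change of Rspo3 was -0.83, and with KO3 left out it was -0.59. For Wnt2 the same fits gave 0.28 and 0.44. KO1 thus held the higher level of both genes and KO3 the lower. The spread in these fits came from the CTL pair alone, so calls in them are not taken as support. Hgf changed sign with the library left out, with 0.061 without KO3 and -0.076 without KO1, and was called in neither.

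**Figure D3:**
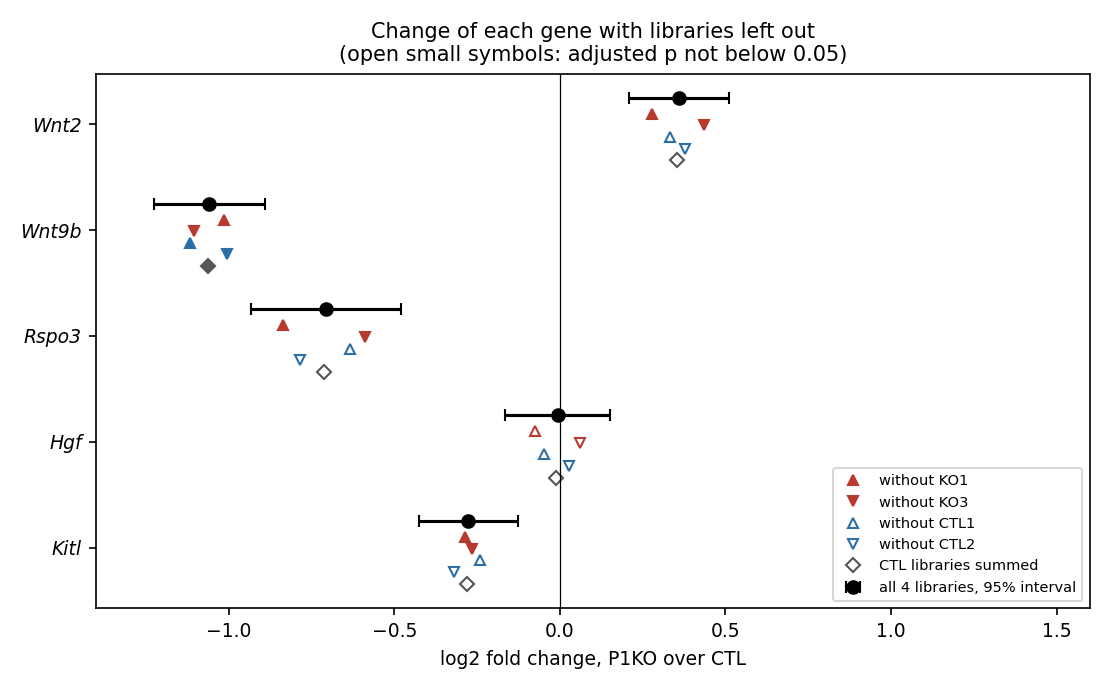
Log2 fold change of P1KO over CTL (horizontal axis) for each gene with all 4 libraries (black, with the 95% interval), with 1 library left out (triangles) and with the CTL libraries summed (diamonds). Small symbols are filled where the adjusted p was below 0.05. Every symbol is filled for Wnt9b, but filled symbols without a P1KO library are not taken as support, because the spread then came from the CTL pair alone. The symbols of Hgf lie on both sides of 0.

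Ratios of reads within a library do not depend on library scaling. They restate the fold changes above from the same libraries and are not separate evidence of an unequal change. Wnt2 had 11.4 reads for each Wnt9b read in KO1 and 9.58 in KO3, against 4.01 in CTL1 and 3.83 in CTL2. The balance of reads from these Wnt ligands was thus 2.67-fold further towards Wnt2 in P1KO. The groups did not overlap for this pair, nor for any other pair of the genes followed here, so non-overlap does not set it apart. Wnt2 over Rspo3 was 9.91 in KO1 and 10.5 in KO3, against 4.56 in CTL1 and 5.22 in CTL2, a 2.10-fold shift. Ratios compare reads and not transcripts, because the genes differ in length, and only their shift between groups is interpretable. No p is given for them, since no test was run on the ratios. An exact two-sided p from 2 libraries against 2 cannot fall below 0.333, for a ratio or for a single gene. The edgeR p-values above rest instead on a model of the spread fitted over all tested genes.

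Wnt9b and Rspo3 were both lower in P1KO. The 95% intervals of their log2 fold changes, -1.23 to -0.89 and -0.93 to -0.48, overlapped narrowly, which does not show falls of like size. Wnt9b over Rspo3 was 0.871 in KO1 and 1.10 in KO3, against 1.14 in CTL1 and 1.37 in CTL2, a shift of 0.785-fold. KO3 and CTL1 lay within counting error of each other, and a difference between the falls was not tested. Hgf over Kitl was 2.76 in KO1 and 2.55 in KO3, against 2.09 in CTL1 and 2.32 in CTL2, a shift of 1.20-fold.

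**Figure D4:**
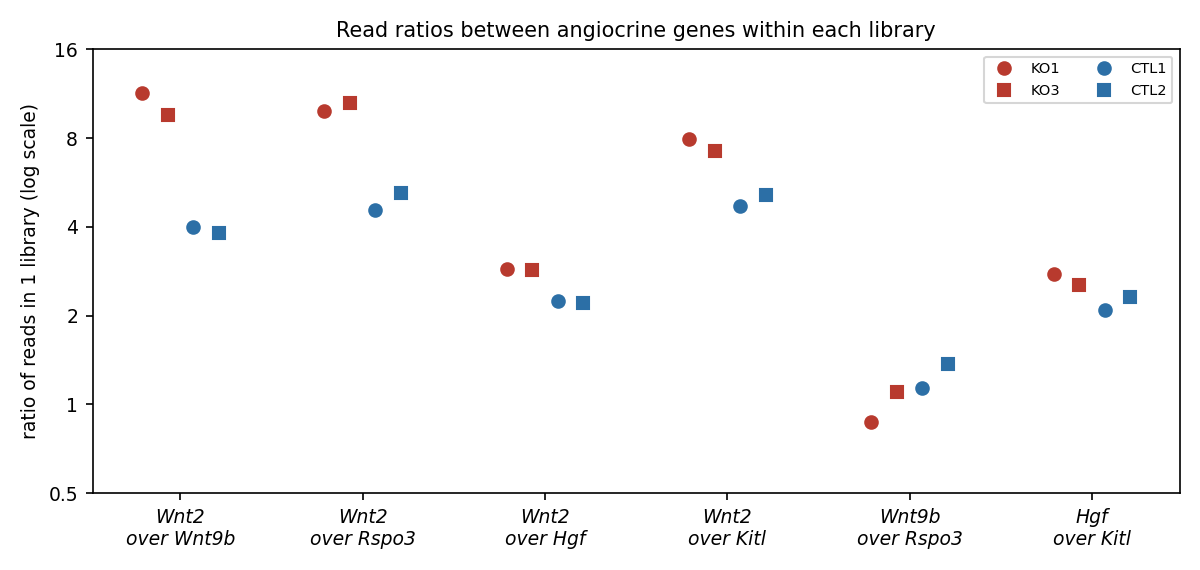
Ratio of the reads of 2 genes within each library (vertical axis, log scale) for 6 of the 10 pairs, P1KO in red and CTL in blue. The ratios of Wnt2 over Wnt9b are 11.4 and 9.58 in P1KO and 4.01 and 3.83 in CTL, the widest separation shown.

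Likeness of pattern was measured as the root mean square difference of centred log2 CPM over the 4 libraries. By this measure the gene of the 5 nearest to Wnt9b was Rspo3, at 0.23, and the nearest to Rspo3 was Wnt9b. Among 14141 genes averaging at least 1 CPM, 4.46% were nearer to Wnt9b than Rspo3 was, so Rspo3 was not among its closest matches. The identifiers are not paired with symbols here, and the closest matches can be given by identifier only. ENSMUSG00000044393 was the closest to Wnt9b, with 25.1 CPM in KO1 and 26.8 CPM in KO3 against 52.0 CPM in CTL1 and 58.8 CPM in CTL2. ENSMUSG00000090222 was the closest to Rspo3, with 44.7 CPM in KO1 and 38.4 CPM in KO3 against 71.0 CPM in CTL1 and 64.9 CPM in CTL2. For Wnt2 the second closest gene, ENSMUSG00000071042, had 427 CPM in KO1 and 379 CPM in KO3 against 307 CPM in CTL1 and 315 CPM in CTL2. It is shown because its level is like that of Wnt2, whereas the closest gene had about 2 CPM. With 4 libraries many genes match a pattern by its group difference alone.

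Receptors and targets of these ligands, the markers of liver cell types and Pofut1 itself are not analysed here, because no table used here pairs their symbols with the identifiers of the count table. The deletion and the identity of the cells were therefore not checked.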

How the data were processed

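The authors deposited 1 table of raw read counts for 54532 Ensembl genes in 4 columns, and 0 columns were left out. The submitters' processing notes name the build mm10, the read counter featureCounts (1.5.0-p3), the aligner HISAT2 (2.0.5) and also fastp and CASAVA. Neither an annotation release nor a strand setting is given in the sources used here. Column KO3 was placed in the P1KO group by its name, although no sample title has that number. No label ties the libraries to separate mice, so p-values measure the spread between libraries, which may be technical.

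P1KO was compared with CTL in edgeR 4.0.16 (R 4.3.3) on all genes kept by filterByExpr, with TMM scaling, the quasi-likelihood F-test and no covariate. The script was tested on simulated data. The simulation gave both groups the same spread, unlike these data, so it cannot show how often calls here are false. The standard error is the absolute log2 fold change divided by the square root of F. Log2 CPM had a prior count of 2. All 5 genes were named whatever their values. The genes and lists were chosen with earlier results of these data known. The 24 lists of pathway genes and markers (203 symbols) were not analysed: the gene table (49997 genes) matched 0 identifiers of the count table. For the same reason the rule for closest genes was applied without its condition on symbols. The names of the 5 genes come with their identifiers from the definition of the set, and their coordinates from RefSeq by symbol.

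Alternatives were DESeq2 size factors, library totals, DESeq2 1.42.0, limma-voom (limma 3.58.1) with 1 spread or 1 per group, other filters, a minimum change of 1.5-fold, summed CTL libraries and each library left out, with the tested genes kept. Cyclic loess, and filtering again in the smaller sets, were added after seeing the data.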

Additional observations from a re-analysis of the deposited data

How the results depend on the processing

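DESeq2 size factors, library totals, limma-voom with 1 spread or 1 per group, a filter of 5 CPM and cyclic loess left 4 of the 5 genes called, with the directions reported and 17.7% to 25.4% of all tested genes called. These scalings moved the median of all genes by at most 0.02 on the log2 scale. Cyclic loess moved each of the 5 genes by more than that. It gave log2 fold changes of 0.30 for Wnt2, -1.10 for Wnt9b, -0.75 for Rspo3, -0.068 for Hgf and -0.32 for Kitl. Kitl was not called in DESeq2 (log2 fold change -0.27, adjusted p = 0.0807; 14.5% of all genes called) or in edgeR with no filter on low counts (-0.28, adjusted p = 0.0609; 6.24% called). Against a minimum change of 1.5-fold, 1 gene of the 5 was called, and 1.74% of all genes, and Wnt2 (0.36), Rspo3 (-0.71) and Kitl (-0.28) were not. With the CTL libraries summed, 1 of the 5 and 0.980% of all genes were called and these 3 were not, at 0.35, -0.71 and -0.28, and filtering low counts again gave 1 gene, 0.278% of all genes and 0.35, -0.71 and -0.28. With 1 library left out, calls over all tested genes, given below, were few without a CTL library and many without a P1KO library. Calls among the 5 genes moved with them, so their range is not specific to these genes. Leaving out 1 library, with or without filtering again, gave 0 to 4 called genes, fewest without a CTL library. The log2 fold changes then ranged from 0.28 to 0.44 for Wnt2, -1.12 to -1.01 for Wnt9b, -0.83 to -0.59 for Rspo3 (-0.84 to -0.58 filtered again), -0.076 to 0.061 for Hgf (-0.077 to 0.067 filtered again) and -0.32 to -0.24 for Kitl. With a CTL library left out and low counts filtered again, Wnt2 was not called at 0.33 and 0.38, Rspo3 at -0.63 and -0.79, Kitl at -0.24 and -0.32, and Wnt9b at -1.01 without CTL2. Hgf turned positive without CTL2 (0.026) and without KO3 (0.061, or 0.067 filtered again), never called. In fits with a lone library, that library was assumed to vary like the other group. Calls over all tested genes numbered 120 to 129 without a CTL library, when the spread came from the P1KO pair, and 5208 to 5391 without a P1KO library, when it came from the CTL pair. Filtered again, they numbered 35 to 42 and 5199 to 5405. No paired analysis was possible because the columns of both groups share 1 replicate number only.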
